A study of Mus musculus with 6 samples.

Results

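Axon guidance ligands and receptors were taken as the genes whose current symbol begins with Sema, Plxn, Epha, Ephb, Efna, Efnb, Robo, Unc5 or Ntn and a digit, together with Nrp1, Nrp2, Slit1, Slit2, Slit3 and Dcc. The rule found 72 of the 20656 genes that the arrays named. Of these, 70 were placed in the guidance families by their symbol. The other 2, the Golgi membrane gene Unc50 and the antisense RNA Plxna4os1, were set apart as matched by spelling only. The 72 genes were read by 92 probes, and 18 of them had more than 1 probe, in which case the probe with the highest mean level over the 6 arrays stood for the gene.

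RNA was hybridised to single-colour Agilent arrays, with 1 array for each of 6 groups. The groups were fibroblasts treated to become neurons by Tet3 at 1, 3, 5 and 7 dpi, read here as days post infection, primary embryonic neurons, and mouse embryonic fibroblasts (MEF), the connective tissue cells the treatment started from. The MEF came from E13.5 ICR embryos, and the labels give that age for the Tet3-treated cells and the neurons too. Tet3 is a dioxygenase that oxidises methylated cytosine in DNA. Per the labels' protocols, adenoviral supernatants were applied on 2 successive days for 8 hours each, and part of the medium was replaced by neuronal medium with 20 µM forskolin, an activator of adenylyl cyclase, on days 3 and 5 after the second infection. No group received virus without Tet3, so effects of the virus are not separable from those of Tet3 in this design. By the stated days, the 1 dpi cells were taken before the first medium change and had received neither neuronal medium nor forskolin. For the later Tet3 groups, virus, Tet3, medium and forskolin cannot be told apart. Whether the 3 and 5 dpi cells were taken before or after a medium change, and which cells the neuron culture held, are not given in the sources used here.

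There were no replicates, so differences describe pairs of arrays and no test between groups was possible. The MEF and 1 dpi arrays shared 1 scan and the remaining 4 shared another, so for 3 dpi, 5 dpi, 7 dpi and neurons over MEF the scan and the group cannot be told apart. In these bulk samples fewer cells of a type and less RNA per cell cannot be told apart either. The brightest of 3 Tet3 probes was 2.56-fold, 3.89-fold and 6.94-fold higher than in MEF at 1, 3 and 5 dpi, but 1.23-fold higher at 7 dpi. Another probe was at least 24.3-fold, 44.1-fold and 116-fold higher at 1, 3 and 5 dpi, and not well above background in MEF or at 7 dpi. The remaining probe stayed within 1.37-fold of MEF at all 4 times. The 7 dpi sample is therefore called the sample labelled 7 dpi, and each direction drawn from it rests on its label. Of 13 neuron markers, 12 were at least 2-fold higher in the sample labelled 7 dpi than in MEF, and their summed level, in units of the array's 75th percentile, was 24.0 there, 115 in neurons and 4.08 in MEF. The 10 fibroblast markers summed to 649 in the sample labelled 7 dpi, 33.2 in neurons and 526 in MEF, so that array still carried the fibroblast transcripts.

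Axon guidance proteins steer the growing tip of an axon by attraction or repulsion. Semaphorins act through plexins, with neuropilins as co-receptors for the secreted class 3 members. Ephrins are membrane-bound and bind the Eph receptor tyrosine kinases on neighbouring cells, Slits repel axons through Robo receptors, and netrins attract through Dcc or repel through Unc5 receptors. Most of these families also act outside the nervous system, in blood vessels, immune cells and connective tissue, so a fibroblast culture can express many of them.

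Members at least 4-fold away from MEF in the sample labelled 7 dpi were Ephb1, Unc5a, Epha8 and Sema6b, which were higher, and Sema4d, Plxnc1 and Plxnb3, which were lower. Tet enzymes act on cytosine in CpG dinucleotides, so the bases before the start of these genes are shown with every CG in capitals and all other bases in lower case. The letters come from RefSeq on GRCm38.p6, written 5′ to 3′ on the strand of the gene, and cover the part of the 250 bases before the first listed start that lies outside the annotated gene. For Unc5a, Sema4d and Plxnb3 the first listed start lies inside the annotated gene, and no bases are shown.
Ephb1, chr9:102354694-102354943, minus strand: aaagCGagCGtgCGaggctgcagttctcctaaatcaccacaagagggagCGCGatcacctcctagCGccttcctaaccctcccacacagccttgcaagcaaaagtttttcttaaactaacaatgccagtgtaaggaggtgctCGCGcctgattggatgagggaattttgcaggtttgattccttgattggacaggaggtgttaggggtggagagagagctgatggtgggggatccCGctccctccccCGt
Epha8, chr4:136956860-136957066, minus strand: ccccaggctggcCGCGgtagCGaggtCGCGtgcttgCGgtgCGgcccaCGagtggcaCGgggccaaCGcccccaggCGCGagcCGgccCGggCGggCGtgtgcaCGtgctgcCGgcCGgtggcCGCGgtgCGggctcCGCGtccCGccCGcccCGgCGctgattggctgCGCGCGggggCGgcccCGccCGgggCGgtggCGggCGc
Sema6b, chr17:56140344-56140593, minus strand: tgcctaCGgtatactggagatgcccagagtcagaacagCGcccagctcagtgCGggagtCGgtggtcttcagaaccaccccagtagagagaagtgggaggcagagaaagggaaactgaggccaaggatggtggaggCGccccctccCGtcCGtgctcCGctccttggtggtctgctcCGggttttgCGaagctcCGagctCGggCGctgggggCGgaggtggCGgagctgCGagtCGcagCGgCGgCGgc
Plxnc1, chr10:94945016-94945095, minus strand: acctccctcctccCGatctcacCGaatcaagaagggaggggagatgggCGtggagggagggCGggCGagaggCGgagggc
The run of Ephb1 holds 10 CG in 250 bases and that of Sema6b holds 20 in 250. Epha8 has 37 CG in 207 bases outside the gene, and Plxnc1 has 6 in 80. Over the full 250 bases, the CG count was 46 for Epha8, 25 for Unc5a, 22 for Plxnc1, 20 for Sema6b, 10 for Ephb1, 3 for Plxnb3 and 2 for Sema4d. The genes that were higher had 10 to 46 CG and those that were lower 2 to 22, ranges that overlap. The counts of Unc5a, Plxnb3 and Sema4d come wholly from bases inside the annotated gene, so no contrast between the directions is drawn. For the 61 members with a listed promoter the median was 16 CG (range 2 to 46), against 6 over all 27025 promoters. DNA methylation was not measured on these arrays. The cAMP response element core TGACG, searched on both strands, was found in 7 of the 61 member promoters (11.5%) and in 17.9% of all promoters, and the full palindrome TGACGTCA, which contains that core, was found in Epha2 alone of the members and in 1.62% of all promoters. CAGCTG, an E-box of the kind basic helix-loop-helix factors bind, was found in 9 members (14.8%) against 12.8% of all promoters, and GAGGAA, which holds the core letters of Ets factor sites, in 16 members (26.2%) against 23.1%.

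Levels below are log2 values with the 75th percentile of each array set to 0, and they are compared only within a gene. A gene was counted as higher or lower where the arrays differed at least 2-fold, and "at least" before a fold means that only 1 of both arrays read the gene well above background. By the scanner software's error model the median array error of a log2 difference was 0.2, which does not cover differences between cultures. With 1 array a group, the number of arrays limits how precise any value can be. Of the 72 members, 64 to 70 were well above background on any 1 array, and Unc5cl was on none.

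All comparisons with MEF share the same MEF array. At 1 dpi over MEF, within 1 scan, 3 of the 68 members with a difference were higher and 8 were lower. The shares were 4.41% and 11.8%, against 5.37% and 6.03% of all genes. At 3 dpi over MEF, 10 of 69 members were higher and 16 lower, or 14.5% and 23.2% of the members, against 16.3% and 9.83% of all genes. The lower share at 3 dpi was thus above the background share and the higher share was not. At 5 dpi over MEF, 13 of 69 were higher and 10 lower, or 18.8% and 14.5%, against 17.9% and 8.28% of all genes.

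In the sample labelled 7 dpi, 15 of 66 members were higher than in MEF and 6 were lower, or 22.7% and 9.09%, against 17.0% and 6.84% of all genes. In neurons over MEF, 25 of 71 members were higher and 22 lower, or 35.2% and 31.0%, against 30.3% and 16.1% of all genes. By role, 10 of 31 receptors and 5 of 34 ligands with a difference were higher in the sample labelled 7 dpi than in MEF, and 4 receptors and 2 ligands were lower. The median log2 difference of the members stayed near 0 in both, at 0.09 for the sample labelled 7 dpi and -0.03 for neurons, against 0.16 and 0.26 over all genes. Dim genes read higher on the later arrays as a whole. For genes with a level under -3 on both arrays the median log2 difference from MEF was 0.53 at 3 dpi, 0.65 at 5 dpi, 0.63 in the sample labelled 7 dpi and 0.90 in neurons, so a small difference of a dim member is close to that of other dim genes. The share of higher genes among the called members was 71.4% in the sample labelled 7 dpi, but 58.8% after quantile normalization and 38.9% after centring on the median. Over all called genes it was 71.3%, 48.4% and 41.9%, so the 71.4% was near the background. The members' share was 53.2% in neurons, with 48.9% and 40.0% under these scalings, against 65.3%, 46.1% and 30.1% of all called genes. At 5 dpi it was 56.5%, with 40.0% and 29.0%, against 68.4%, 45.8% and 39.9%, and at 3 dpi 38.5%, with 29.6% and 28.6%, against 62.3%, 42.7% and 40.6%.

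**Figure D1:**
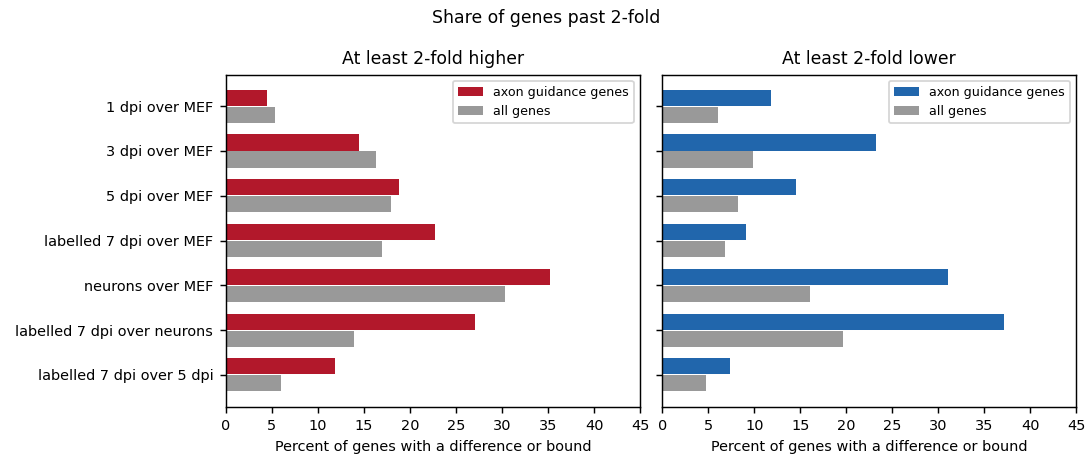
Percent of axon guidance genes (coloured bars) and of all genes (grey bars) that were at least 2-fold higher (left) or lower (right) in each of the 7 comparisons, out of genes with a difference or bound, 1 array per group. The members' share of lower genes at 3 dpi over MEF was 23.2% against 9.83% of all genes, and in the sample labelled 7 dpi over neurons it was 37.1% against 19.6%.

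**Figure D2:**
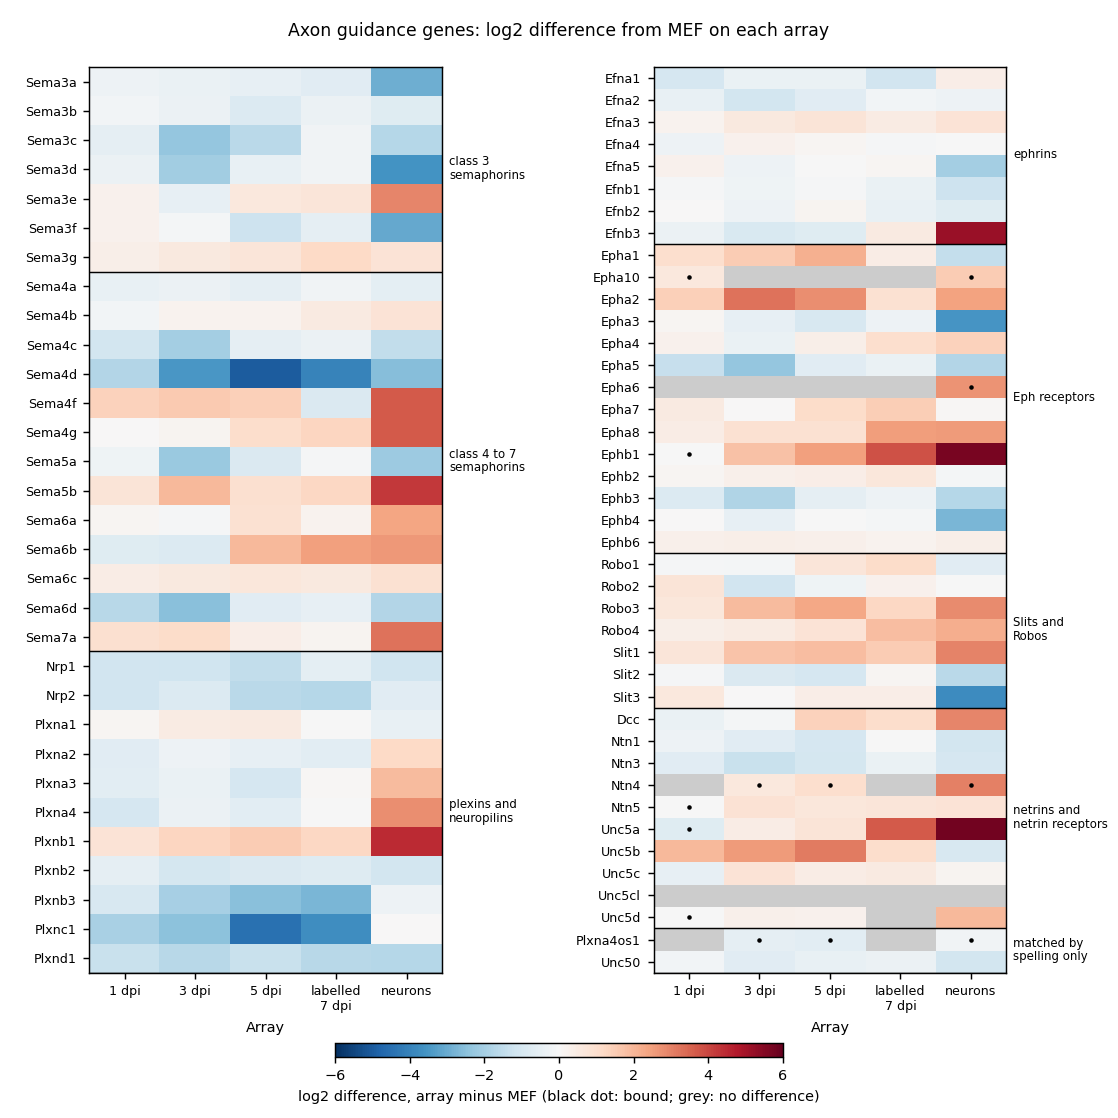
Log2 difference from MEF for each of the 72 genes (rows, by family) on the 4 Tet3 arrays and the neuron array (columns), with red for higher and blue for lower than MEF, a dot for a bound and grey where no difference or bound could be given. The deepest red cells are Unc5a, Ephb1 and Efnb3 in neurons, and the deepest blue ones Sema4d and Plxnc1 at 5 dpi.

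The class 3 semaphorins, the secreted members of the family, were mostly within 2-fold of MEF on the Tet3 arrays and lower in neurons. In the sample labelled 7 dpi 1 of 7, Sema3g, was higher than in MEF (2.29-fold) and none was lower. Of all genes, 17.0% were higher and 6.84% lower there. In neurons 4 of 7 were lower than in MEF and 1 was higher, where 16.1% and 30.3% of all genes were. The median log2 difference was -1.70 against 0.26 over all genes. Sema3a was at 0.54 in MEF, 0.22 at 1 dpi, 0.16 at 3 dpi, 0.03 at 5 dpi, -0.14 in the sample labelled 7 dpi and -2.41 in neurons. Sema3a, the collapsin that repels many sensory and cortical axons, was by this brightest probe 7.71-fold lower in neurons than in MEF and 1.60-fold lower in the sample labelled 7 dpi. Its second probe was 1.30-fold lower in neurons and 1.20-fold higher in the sample labelled 7 dpi. Sema3f was at 2.34 in MEF, 2.59 at 1 dpi, 2.19 at 3 dpi, 1.07 at 5 dpi, 1.79 in the sample labelled 7 dpi and -0.74 in neurons. Sema3f, which acts through neuropilin-2, was 8.41-fold lower in neurons. Sema3e was at -3.87 in MEF, -3.59 at 1 dpi, -4.34 at 3 dpi, -3.23 at 5 dpi, -3.12 in the sample labelled 7 dpi and -0.91 in neurons. Sema3e, which can bind Plxnd1 without a neuropilin, went the other way in neurons, 7.75-fold higher than in MEF, and was 1.67-fold higher in the sample labelled 7 dpi. Sema3c was at 3.46 in MEF, 2.92 at 1 dpi, 1.12 at 3 dpi, 1.83 at 5 dpi, 3.26 in the sample labelled 7 dpi and 1.76 in neurons. Sema3c was lower at 3 and 5 dpi, by 5.06-fold and 3.10-fold, and back within 2-fold in the sample labelled 7 dpi. Sema3d was 12.1-fold lower in neurons, and Sema3b and Sema3g stayed within 2-fold there.

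The 13 membrane-bound semaphorins of classes 4 to 7 split in both directions. In the sample labelled 7 dpi, Sema6b, Sema4g and Sema5b were higher than in MEF and Sema4d was lower. In neurons 6 were higher and 4 lower. Over all genes the shares higher and lower were 17.0% and 6.84% in the sample labelled 7 dpi, and 30.3% and 16.1% in neurons. Sema6b was at -4.40 in MEF, -5.11 at 1 dpi, -5.23 at 3 dpi, -2.45 at 5 dpi, -1.96 in the sample labelled 7 dpi and -1.78 in neurons. The first 3 values lie within 1 log2 unit of each other, and those at 5 dpi, in the sample labelled 7 dpi and in neurons lie well above them. Sema6b was 5.46-fold higher than in MEF in the sample labelled 7 dpi (log2 2.45, array error 0.21) and 1.13-fold lower there than in neurons. Sema4g was 2.43-fold and Sema5b 2.38-fold higher than in MEF in the sample labelled 7 dpi, but the folds in neurons were 12.7 and 18.9.

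Sema4d was at 1.91 in MEF, 0.17 at 1 dpi, -1.58 at 3 dpi, -3.08 at 5 dpi, -2.08 in the sample labelled 7 dpi and -0.66 in neurons. Sema4d, also known as CD100 and carried by lymphocytes and other immune cells as well as neural cells, was lower than MEF on all 5 other arrays. It was 31.8-fold lower at 5 dpi, 16.0-fold lower in the sample labelled 7 dpi (log2 -4.0, array error 0.2) and 5.94-fold lower in neurons. The 11 macrophage markers moved with it: all 11 were at least 2-fold lower than in MEF in each of these comparisons. Their summed level was 316 in MEF, 54.5 at 1 dpi, 19.5 at 3 dpi, 3.38 at 5 dpi, 2.69 in the sample labelled 7 dpi, where Mrc1 and Stab1 were not well above background, and 3.38 in neurons. The part of these cells in the Sema4d difference was not tested.

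Sema7a was at -3.25 in MEF, -2.32 at 1 dpi, -2.14 at 3 dpi, -2.87 at 5 dpi, -3.07 in the sample labelled 7 dpi and 0.00 in neurons. Sema7a, a lipid-anchored ligand of Plxnc1 and of integrins, was 9.54-fold higher in neurons than in MEF but 1.13-fold higher in the sample labelled 7 dpi. Sema5a was at 2.56 in MEF, 2.28 at 1 dpi, 0.33 at 3 dpi, 1.67 at 5 dpi, 2.51 in the sample labelled 7 dpi and 0.39 in neurons. That is 4.69-fold lower than MEF at 3 dpi, within 2-fold at 5 dpi and in the sample labelled 7 dpi, and 4.48-fold lower in neurons. Sema6d by its brightest probe was at 0.56 in MEF, -1.08 at 1 dpi, -1.96 at 3 dpi, -0.12 at 5 dpi, 0.08 in the sample labelled 7 dpi and -1.18 in neurons. Its second probe differed from this, as given with the probes below. Sema4f was 12.9-fold higher in neurons than in MEF, and 2.59-fold, 2.97-fold and 2.70-fold higher at 1, 3 and 5 dpi, but 1.80-fold lower in the sample labelled 7 dpi. Sema4c, the semaphorin that binds Plxnb2, was 2.17-fold lower at 1 dpi and 4.17-fold lower at 3 dpi. Sema6a was 5.18-fold higher in neurons and within 2-fold of MEF on every Tet3 array, and Sema4a, Sema4b and Sema6c were within 2-fold of MEF on all 5 arrays.

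Of the 11 plexins and neuropilins, the receptors for these ligands, 4 were lower and 1 was higher than in MEF in the sample labelled 7 dpi, with a median log2 difference of -0.64 against 0.16 over all genes. The shares over all genes were 6.84% lower and 17.0% higher. Plxnc1 was at 1.55 in MEF, -0.41 at 1 dpi, -0.93 at 3 dpi, -2.91 at 5 dpi, -2.20 in the sample labelled 7 dpi and 1.56 in neurons. Plxnc1, the Sema7a receptor, was 3.88-fold lower at 1 dpi, 22.0-fold lower at 5 dpi and at a log2 difference of -3.75 in the sample labelled 7 dpi (array error 0.21), while neurons and MEF differed by 1.01-fold, all by its brightest probe. By its second probe it was 25.8-fold lower in the sample labelled 7 dpi and 3.36-fold lower in neurons than in MEF. Plxnb3 was at -2.38 in MEF, -3.36 at 1 dpi, -4.38 at 3 dpi, -4.91 at 5 dpi, -5.13 in the sample labelled 7 dpi and -2.68 in neurons. Plxnb3, a receptor for Sema5a, was 6.71-fold lower in the sample labelled 7 dpi than in MEF and 5.47-fold lower than in neurons. Plxnd1 was at 1.92 in MEF, 0.59 at 1 dpi, 0.25 at 3 dpi, 0.58 at 5 dpi, 0.25 in the sample labelled 7 dpi and 0.22 in neurons. Plxnd1, known from blood vessels, was by its brightest probe at least 2-fold lower than in MEF on all 4 Tet3 arrays and in neurons. Its second probe was 1.61-fold to 1.98-fold lower on the Tet3 arrays and 2.09-fold lower in neurons. The macrophage markers above were lower on the same arrays, and their part in the plexin differences was not tested.

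**Figure D3:**
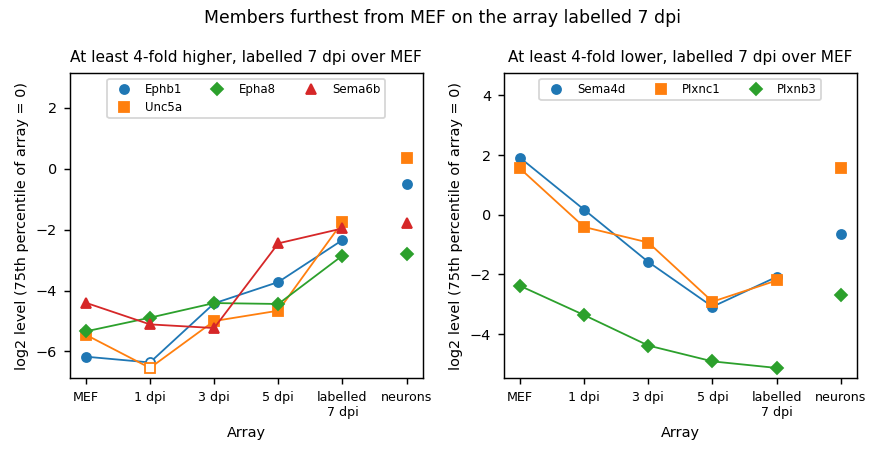
Log2 level on each of the 6 arrays (75th percentile of the array set to 0) for the members at least 4-fold higher (left) or lower (right) in the sample labelled 7 dpi than in MEF, with lines joining the time course, open symbols for values not well above background, and 1 array per point. Ephb1 lies at -2.34 in the sample labelled 7 dpi and -6.17 in MEF, and Sema4d at -2.08 in the sample labelled 7 dpi and 1.91 in MEF.

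Nrp2 was at 2.92 in MEF, 1.75 at 1 dpi, 2.07 at 3 dpi, 1.31 at 5 dpi, 1.21 in the sample labelled 7 dpi and 2.26 in neurons. Nrp2, the Sema3f co-receptor, was 3.26-fold lower in the sample labelled 7 dpi than in MEF. Nrp1 was at 1.41 in MEF, 0.27 at 1 dpi, 0.22 at 3 dpi, -0.09 at 5 dpi, 0.81 in the sample labelled 7 dpi and 0.23 in neurons. Nrp1, the Sema3a co-receptor that also serves vascular endothelial growth factor, was lower at 1, 3 and 5 dpi, by 2.21-fold, 2.28-fold and 2.82-fold, and 1.51-fold lower in the sample labelled 7 dpi. Plxna4 was at -0.95 in MEF, -1.95 at 1 dpi, -1.28 at 3 dpi, -1.57 at 5 dpi, -0.98 in the sample labelled 7 dpi and 1.84 in neurons. Plxna4, which signals for Sema3a and Sema6 ligands in neurons, was 6.89-fold higher in neurons than in MEF and 1.02-fold lower in the sample labelled 7 dpi. Plxna2 was at 0.95 in MEF, 0.28 at 1 dpi, 0.65 at 3 dpi, 0.44 at 5 dpi, 0.31 in the sample labelled 7 dpi and 2.16 in neurons. Plxna1 was at 1.79 in MEF, 1.91 at 1 dpi, 2.26 at 3 dpi, 2.34 at 5 dpi, 1.77 in the sample labelled 7 dpi and 1.33 in neurons. Plxna1 was within 2-fold of MEF throughout, and Plxna2 was higher only in neurons, by 2.31-fold. Plxnb1, the main Sema4d receptor, was 22.3-fold higher in neurons and 2.39-fold higher in the sample labelled 7 dpi. Plxnb2, the receptor of Sema4c, was 2.06-fold lower at 3 dpi and 2.13-fold lower in neurons. Plxna3 was 3.68-fold higher in neurons and 1.06-fold higher in the sample labelled 7 dpi.

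The 8 ephrins differed little from MEF on the Tet3 arrays. In the sample labelled 7 dpi none was higher and 1 was lower, Efna1, by 2.26-fold. On that array 17.0% of all genes were higher and 6.84% lower than in MEF. Efnb3 was at -3.22 in MEF, -3.55 at 1 dpi, -4.12 at 3 dpi, -3.97 at 5 dpi, -2.70 in the sample labelled 7 dpi and 1.95 in neurons. Efnb3, the ephrin of the spinal cord midline that keeps axons on their own side, was 35.9-fold higher in neurons than in MEF and 1.43-fold higher in the sample labelled 7 dpi. The level on that array was 2.40-fold higher than at 5 dpi, within 1 scan. Efnb1 was at 1.53 in MEF, 1.46 at 1 dpi, 1.27 at 3 dpi, 1.45 at 5 dpi, 1.14 in the sample labelled 7 dpi and 0.27 in neurons. Efnb2 was at 1.69 in MEF, 1.70 at 1 dpi, 1.38 at 3 dpi, 1.86 at 5 dpi, 1.24 in the sample labelled 7 dpi and 0.95 in neurons. These transmembrane ephrins stayed within 2-fold of MEF on every Tet3 array, and in neurons Efnb1 was 2.39-fold lower. Efna5 was at 1.78 in MEF, 2.03 at 1 dpi, 1.49 at 3 dpi, 1.74 at 5 dpi, 1.90 in the sample labelled 7 dpi and -0.23 in neurons. Efna5, a lipid-anchored ephrin of topographic maps, stayed within 1.23-fold of MEF on the Tet3 arrays and was 4.05-fold lower in neurons. Efna2 was 2.18-fold lower than in MEF at 3 dpi and within 2-fold elsewhere, and Efna4 was within 2-fold of MEF on all 5 arrays. Efna3 was within 2-fold throughout by its brightest probe, but its second probe was 2.29-fold higher at 3 dpi, 2.65-fold at 5 dpi and 3.42-fold in neurons.

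Among the 14 Eph receptors, 3 of 12 with a difference were higher and none lower in the sample labelled 7 dpi over MEF, while neurons over MEF had 6 higher and 5 lower of 14. Of all genes, 17.0% were higher and 6.84% lower in the first comparison, and 30.3% and 16.1% in the second. Ephb1 was at -6.17 in MEF, -6.36 at 1 dpi (not well above background), -4.42 at 3 dpi, -3.72 at 5 dpi, -2.34 in the sample labelled 7 dpi and -0.49 in neurons. The MEF and 1 dpi levels were the low end, each later array was higher than the one before, and neurons were the highest. Ephb1, which turns retinal axons at the optic chiasm, was 14.2-fold higher than in MEF in the sample labelled 7 dpi (log2 3.83, array error 0.33), 2.61-fold higher than at 5 dpi and 3.61-fold lower than in neurons. The lowest log2 difference of Ephb1 from MEF in that sample under the processing alternatives was 2.2. Epha8 was at -5.34 in MEF, -4.89 at 1 dpi, -4.41 at 3 dpi, -4.44 at 5 dpi, -2.85 in the sample labelled 7 dpi and -2.80 in neurons. It was 5.62-fold higher in the sample labelled 7 dpi than in MEF (log2 2.49, array error 0.25), 3.02-fold higher than at 5 dpi, and 1.04-fold lower than in neurons. For Epha8 the lowest log2 difference from MEF in that sample under the alternatives was 1.53.

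Epha7 was at -1.26 in MEF, -0.71 at 1 dpi, -1.25 at 3 dpi, -0.16 at 5 dpi, 0.20 in the sample labelled 7 dpi and -1.19 in neurons. Epha7 was 2.75-fold higher in the sample labelled 7 dpi than in MEF, and its other 2 probes gave 2.81-fold and 2.64-fold. Epha4 was at -1.52 in MEF, -1.26 at 1 dpi, -1.94 at 3 dpi, -1.19 at 5 dpi, -0.53 in the sample labelled 7 dpi and -0.12 in neurons. Epha4, a receptor for ephrins of both classes in motor and corticospinal axons, was 1.98-fold higher in the sample labelled 7 dpi and 2.64-fold higher in neurons. Epha3 was at 1.53 in MEF, 1.65 at 1 dpi, 1.06 at 3 dpi, 0.56 at 5 dpi, 1.22 in the sample labelled 7 dpi and -2.0 in neurons. Epha3 was 11.5-fold lower in neurons than in MEF, against 1.24-fold in the sample labelled 7 dpi. Ephb2 was at -0.84 in MEF, -0.71 at 1 dpi, -0.52 at 3 dpi, -0.43 at 5 dpi, -0.14 in the sample labelled 7 dpi and -0.95 in neurons. Ephb2 was within 2-fold of MEF on all 5 arrays, as was Ephb6.

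Epha2, a receptor best known from epithelia, was at -2.60 in MEF, -1.18 at 1 dpi, 0.64 at 3 dpi, 0.17 at 5 dpi, -1.67 in the sample labelled 7 dpi and -0.18 in neurons. Its MEF level was exceeded 9.46-fold at 3 dpi and 1.90-fold in the sample labelled 7 dpi. Epha1 exceeded its MEF level 4.42-fold at 5 dpi and 1.36-fold in the sample labelled 7 dpi, and was 2.73-fold lower in neurons. Epha5 by its brightest probe was at 2.92 in MEF, 1.53 at 1 dpi, 0.59 at 3 dpi, 2.23 at 5 dpi, 2.49 in the sample labelled 7 dpi and 1.14 in neurons. Ephb4, the venous ephrin-B2 receptor, was by its brightest probe within 2-fold of MEF on the Tet3 arrays and 6.61-fold lower in neurons, where its second probe was 1.02-fold lower. Epha6 and Epha10 were not well above background in the sample labelled 7 dpi. In neurons they exceeded MEF by at least 6.39-fold and at least 2.82-fold. The Epha10 difference fell short of 2-fold under normexp, quantile normalization and centring on the median, at a lowest log2 value of 0.03.

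For Slits and Robos, 4 of 7 were higher in the sample labelled 7 dpi than in MEF and none was lower, with a median log2 difference of 1.09 against 0.16 over all genes, of which 17.0% were higher. Of the 4, Robo1 and Robo3 fell short of 2-fold under normexp background correction and under centring on the median, at lowest log2 differences of 0.65 and 0.42. Robo3 did so under quantile normalization as well, and Slit1 and Robo4 stayed past 2-fold. Slit1 was at -1.78 in MEF, -1.03 at 1 dpi, -0.07 at 3 dpi, 0.08 at 5 dpi, -0.27 in the sample labelled 7 dpi and 1.18 in neurons. Slit1, the Slit most confined to the nervous system, was 2.84-fold higher in the sample labelled 7 dpi than in MEF, after 3.26-fold at 3 dpi and 3.62-fold at 5 dpi, and 7.76-fold higher in neurons. Slit2 was at 2.73 in MEF, 2.64 at 1 dpi, 1.86 at 3 dpi, 1.73 at 5 dpi, 2.83 in the sample labelled 7 dpi and 1.09 in neurons. Slit3 was at 1.52 in MEF, 2.13 at 1 dpi, 1.55 at 3 dpi, 1.92 at 5 dpi, 1.93 in the sample labelled 7 dpi and -2.26 in neurons. Slit2 and Slit3, which many tissues make, were 3.11-fold and 13.7-fold lower in neurons than in MEF but within 1.32-fold of MEF in the sample labelled 7 dpi.

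Robo1 was at -0.30 in MEF, -0.37 at 1 dpi, -0.43 at 3 dpi, 0.42 at 5 dpi, 0.79 in the sample labelled 7 dpi and -1.0 in neurons. Robo1 was 2.13-fold higher in the sample labelled 7 dpi than in MEF and 3.46-fold higher than in neurons. Robo2 was at -0.54 in MEF, 0.24 at 1 dpi, -1.71 at 3 dpi, -0.82 at 5 dpi, -0.26 in the sample labelled 7 dpi and -0.57 in neurons. Robo2 was 2.25-fold lower than in MEF at 3 dpi and within 2-fold on the other Tet3 arrays and in neurons. Robo3, which controls when commissural axons may cross the midline, was 5.06-fold higher at 5 dpi than in MEF, 2.33-fold higher in the sample labelled 7 dpi and 7.19-fold higher in neurons. Robo4, known from endothelium, was at -5.86 in MEF, -5.52 at 1 dpi, -5.35 at 3 dpi, -5.05 at 5 dpi, -4.01 in the sample labelled 7 dpi and -3.66 in neurons, which is 3.59-fold higher than MEF in the sample labelled 7 dpi. The 10 endothelial markers summed to 3.46 in the sample labelled 7 dpi and 2.90 in MEF. Most of both sums was Kdr, at 1.21 in the sample labelled 7 dpi and 0.73 in MEF. Flt1 and Tek were lower in the sample labelled 7 dpi than in MEF, and Pecam1 and Cldn5 were higher. Cdh5, Tie1, Emcn, Esam and Erg were not well above background in the sample labelled 7 dpi. Robo3 and Robo4 are dim genes, for which the median difference of all dim genes given above applies.

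Among the netrins and their receptors, Unc5a, Unc5b and Dcc were higher in the sample labelled 7 dpi than in MEF and none of 7 with a difference was lower. In that comparison 17.0% of all genes were higher and 6.84% lower. Unc5a was at -5.45 in MEF, -6.54 at 1 dpi (not well above background), -5.0 at 3 dpi, -4.66 at 5 dpi, -1.75 in the sample labelled 7 dpi and 0.36 in neurons. Only the sample labelled 7 dpi and the neuron array stand clear of the others. Unc5a, a repulsive netrin receptor, was 12.9-fold higher than in MEF in the sample labelled 7 dpi (log2 3.69, array error 0.24), 7.49-fold higher than at 5 dpi in the same scan and 4.31-fold lower than in neurons, and neurons were 55.8-fold above MEF. Under the processing alternatives the lowest log2 difference of Unc5a from MEF in the sample labelled 7 dpi was 2.53. Unc5b was at 0.71 in MEF, 2.67 at 1 dpi, 3.27 at 3 dpi, 3.83 at 5 dpi, 1.76 in the sample labelled 7 dpi and -0.27 in neurons. Unc5b, a netrin receptor also known from blood vessels, was higher than MEF on all 4 Tet3 arrays, by 3.89-fold, 5.86-fold and 8.65-fold at 1, 3 and 5 dpi and 2.07-fold in the sample labelled 7 dpi, and 1.98-fold lower in neurons. Its 1 dpi value is the highest log2 difference of any member within the scan that holds MEF, at 1.96.

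Unc5c was at -1.75 in MEF, -2.22 at 1 dpi, -0.94 at 3 dpi, -1.31 at 5 dpi, -1.24 in the sample labelled 7 dpi and -1.57 in neurons. Unc5d was at -6.18 in MEF, -7.40 at 1 dpi (not well above background), -5.87 at 3 dpi, -5.90 at 5 dpi, -6.23 in the sample labelled 7 dpi (not well above background) and -4.22 in neurons. Unc5c stayed within 2-fold of MEF on all arrays by its brightest probe, though its second probe was 3.06-fold higher at 3 dpi, and Unc5d was 3.88-fold higher in neurons. Dcc by its brightest probe was at 4.57 in MEF, 4.14 at 1 dpi, 4.44 at 3 dpi, 5.96 at 5 dpi, 5.63 in the sample labelled 7 dpi and 7.52 in neurons. Dcc, the attractive netrin receptor, was by that probe 2.09-fold higher in the sample labelled 7 dpi than in MEF and 7.75-fold higher in neurons. In the sample labelled 7 dpi its difference fell short of 2-fold under centring on the median, at a log2 value of 0.62. Ntn1 by its brightest probe was at 0.56 in MEF, 0.28 at 1 dpi, -0.11 at 3 dpi, -0.43 at 5 dpi, 0.54 in the sample labelled 7 dpi and -0.53 in neurons. Ntn1, the midline attractant, was by that probe within 2-fold of MEF on every Tet3 array. Ntn4 was at -8.89 in MEF (not well above background), -7.25 at 1 dpi (not well above background), -5.95 at 3 dpi, -5.57 at 5 dpi, -6.83 in the sample labelled 7 dpi (not well above background) and -3.56 in neurons. Ntn4, a netrin of basement membranes, was at least 8.22-fold above its MEF signal in neurons. Ntn3 was 2.55-fold and 2.09-fold lower at 3 and 5 dpi and within 2-fold otherwise, and Ntn5 was within 2-fold wherever it was measured.

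Several members left their MEF level at 3 dpi and differed again by the sample labelled 7 dpi, a pattern looked for after the values had been seen. Both steps share the 3 dpi array. Lower than MEF at 3 dpi and higher in the sample labelled 7 dpi than at 3 dpi, each at least 2-fold, were 8 of 66 members (12.1%), against 4.32% of all genes. The fibroblast markers Dcn, Lum and Pdgfra, 3 of the 10, were also lower than MEF at 3 dpi. Dcn was at 5.51 in MEF, 2.80 at 3 dpi and 6.39 in the sample labelled 7 dpi, Lum at 3.57, 1.37 and 4.74, and Pdgfra at 2.97, 1.33 and 3.46. Other markers of the list went the other way. Thy1 was at 4.42 in MEF and 5.89 at 3 dpi, Pdgfrb at 3.33 and 4.11, and Fn1 at 6.06 and 6.32. Col1a1, Col1a2, Col3a1 and Postn were lower at 3 dpi by less than 2-fold. The 10 markers summed to 526 in MEF, 438 at 3 dpi and 649 in the sample labelled 7 dpi, and the part of these cells in the dip was not tested. The 8 members were Sema3c, Sema3d, Sema4c, Sema5a, Sema6d, Epha5, Ephb3 and Robo2. Sema5a was 4.52-fold and Sema3c 4.41-fold higher in the sample labelled 7 dpi than at 3 dpi, both in the same scan. Ephb3, which was at 3.82 in MEF, 3.01 at 1 dpi, 2.01 at 3 dpi, 3.26 at 5 dpi, 3.51 in the sample labelled 7 dpi and 2.10 in neurons, was 2.82-fold higher in the sample labelled 7 dpi than at 3 dpi. For Epha5 and Sema6d a second probe did not show the dip. The opposite course, higher at 3 dpi and then lower, was found in 4 of 66 members (6.06%), Unc5b, Epha2, Epha1 and Sema4f, against 3.43% of all genes. Sema4f was 5.35-fold and Epha2 4.98-fold lower in the sample labelled 7 dpi than at 3 dpi. By the brightest probe all 3 of Plxnc1, Plxnd1 and Sema4d were at least 2-fold lower than MEF on each of the 4 Tet3 arrays (4.55% of members, against 3.56% of all genes), and Unc5b was the 1 member at least 2-fold higher on each of them (1.52%, against 2.0%). In the sample labelled 7 dpi the Unc5b difference fell short of 2-fold under normexp and under centring on the median, with a lowest log2 value of 0.61.

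**Figure D4:**
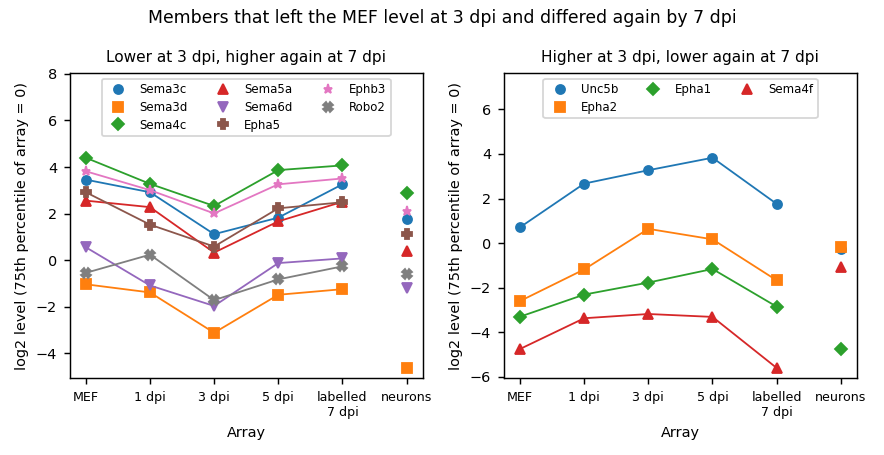
Log2 level on each of the 6 arrays (75th percentile of the array set to 0) for the 8 members lower at 3 dpi and then higher (left) and the 4 members higher at 3 dpi and then lower (right), by the brightest probe and with 1 array per point. Sema5a reads 2.56 in MEF, 0.33 at 3 dpi and 2.51 in the sample labelled 7 dpi, and Epha2 reads -2.60 in MEF, 0.64 at 3 dpi and -1.67 in the sample labelled 7 dpi.

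How near the treated cells were to neurons in these genes was read from the sample labelled 7 dpi and the neuron array, which share a scan. Of 70 members, 19 (27.1%) were higher in the sample labelled 7 dpi than in neurons and 26 (37.1%) were lower, against 13.9% and 19.6% of all genes, so both shares were above the background. The higher ones were led by Slit3 (18.2-fold), Sema3d (10.4-fold), Epha3 (9.31-fold), Ephb4 (6.14-fold), Sema3f (5.77-fold) and Sema3a (4.83-fold). The second probes of Ephb4 and Sema3a gave 1.54-fold and 1.57-fold. Of the 19, Epha5, Epha7, Sema6d and Ntn1 were lower by another probe, by 2.98-fold, 1.83-fold, 1.80-fold and 1.16-fold. Averaging over probes left 15 members higher. All 10 fibroblast markers were also higher in the sample labelled 7 dpi than in neurons, and their part in these differences was not tested. The lower ones were led by Efnb3 (25.1-fold), Sema4f (23.3-fold), Plxnc1 (13.6-fold), Plxnb1 (9.32-fold), Sema7a (8.42-fold), Sema5b (7.93-fold) and Plxna4 (7.03-fold), and Plxnc1 was 7.69-fold lower by its second probe. Of 13 neuron markers, 11 were lower too. The 8 astrocyte and radial glia markers summed to 46.4 in the sample labelled 7 dpi, 200 in neurons and 55.5 in MEF. In MEF and the sample labelled 7 dpi nearly all of the sum was Vim, at 5.72 and 5.44, with 6.15 in neurons. Each of the other markers was also lower on both arrays than in neurons. Gfap was at -4.81 in MEF, -4.48 in the sample labelled 7 dpi and 4.17 in neurons, and Aqp4 at -0.85, -0.31 and 4.17. The part of such cells in these differences was not tested. Epha8, Sema6b, Robo4 and Plxnd1 differed by 1.04-fold, 1.13-fold, 1.27-fold and 1.02-fold between these arrays.

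In the sample labelled 7 dpi over 5 dpi, again within a scan, 8 of 68 members (11.8%) were higher and 5 (7.35%) lower, against 6.0% and 4.72% of all genes. Unc5a (7.49-fold), Epha8 (3.02-fold), Sema3c (2.71-fold), Ephb1 (2.61-fold), Efnb3 (2.40-fold), Slit2 (2.14-fold), Plxna3 (2.12-fold) and Robo4 (2.06-fold) were higher. Sema4f (4.87-fold), Unc5b (4.19-fold), Epha2 (3.59-fold), Epha1 (3.24-fold) and Robo3 (2.18-fold) were lower. These arrays differ in the Tet3 signal as well as in time, as given above.

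Genes that work with these families were read from 2 lists. Of 28 other guidance ligands, receptors and co-receptors with a difference, 7 were higher and 2 lower in the sample labelled 7 dpi than in MEF, where 17.0% and 6.84% of all genes were. Dscam, an adhesion molecule that can bind netrin, was at least 33.7-fold higher there, Slitrk5 11.2-fold and the L1 family member Chl1 5.59-fold. The chemokine receptor Cxcr4 was at least 126-fold lower. The macrophage markers given above were lower on that array too, and their part in the Cxcr4 difference was not tested. In neurons 15 of 30 were higher than in MEF and 10 lower, against 30.3% and 16.1% of all genes, with Islr2 256-fold and Slitrk5 46.5-fold higher. Of 49 intracellular effectors of guidance receptors, 12 were higher and 1 lower in the sample labelled 7 dpi than in MEF, with a median log2 difference of 0.42 against 0.16 over all genes. Crmp1, a collapsin response mediator, was 13.9-fold higher, Ngef, the exchange factor ephexin that Eph receptors activate, 9.53-fold, the Cdk5 activator Cdk5r1 8.42-fold and the exchange factor Kalrn 5.97-fold. In neurons the same 4 genes were 110-fold, 82.1-fold, 64.7-fold and 7.76-fold higher than in MEF, and 23 of 49 effectors were higher and 5 lower, to be read against the same 30.3% and 16.1%.

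Of the 2 genes matched by spelling only, Unc50 was 1.27-fold lower in the sample labelled 7 dpi than in MEF and 2.13-fold lower in neurons, where it is 1 of the 22 lower genes, and Plxna4os1 was well above background in MEF alone.

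Probes of 1 gene did not always move together, and differences among those of Sema3a, Plxnc1, Plxnd1, Efna3, Ephb4 and Unc5c were given with the genes. Dcc had 3 probes, and the other 2 were not well above background in MEF or at 1 dpi. One of them was at least 3.13-fold higher in the sample labelled 7 dpi and at least 15.3-fold higher in neurons, each against MEF, and the other was well above background in neurons alone, at least 12.1-fold higher. The 3 probes thus share the direction in neurons but not a baseline in MEF. For Epha5 the second probe was 3.52-fold higher in the sample labelled 7 dpi and 10.5-fold higher in neurons than in MEF, where the brightest was 1.34-fold and 3.44-fold lower. For Sema6d it was 1.96-fold and 3.54-fold higher, where the brightest was 1.40-fold and 3.35-fold lower. For Ntn1 it was 2.19-fold and 2.55-fold higher, where the brightest was 1.02-fold and 2.14-fold lower. For Efnb2 the second probe was 2.09-fold higher in neurons, where the brightest was 1.68-fold lower. The direction of Epha5, Sema6d, Ntn1 and Efnb2 in neurons over MEF therefore depends on the probe, and in neurons Epha7 was 1.05-fold, 5.15-fold and 1.60-fold higher by its 3 probes.

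**Figure D5:**
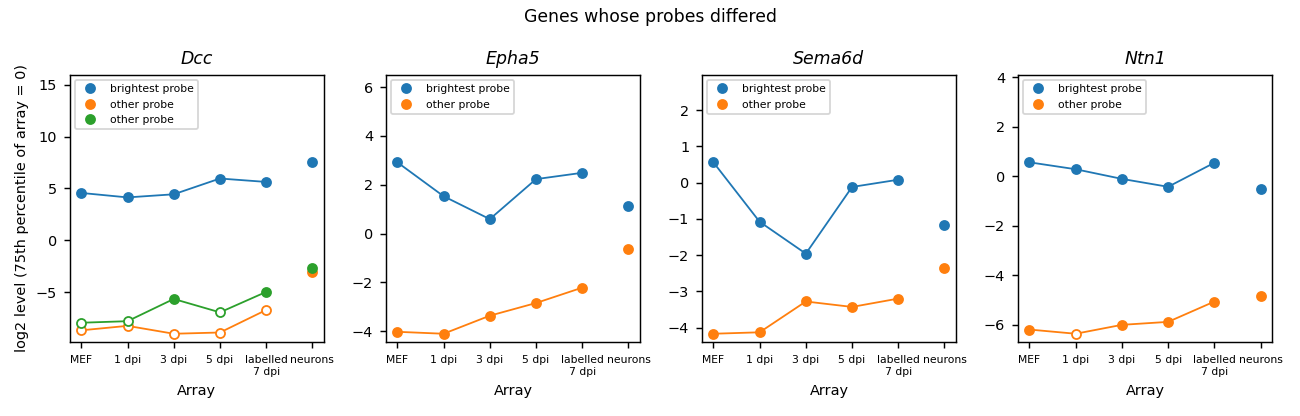
Log2 level of each probe of Dcc, Epha5, Sema6d and Ntn1 on the 6 arrays (75th percentile of the array set to 0, open symbols not well above background, 1 array per point). The brightest probes of Epha5 and Sema6d are lower in neurons than in MEF, and their second probes are higher.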

How the data were processed

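Scans were read with Agilent Feature Extraction 11.0.1.1 according to the submitters' processing notes. Its deposited intensity columns carry spot signals already corrected for background, per the file headers. The neuron file was saved with 3 significant digits. The authors' deposited series table holds log2 values with the 75th percentile of each array at 0; the sources used here do not say how. It correlated with the values computed here at r of 0.99998 or more and had column medians of -3.303, -3.234, -3.003, -2.899, -2.864 and -2.503 for MEF, 1, 3, 5, 7 dpi and neurons.

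From the processed signals, spots of a probe were averaged without outlier spots (39409 of 39429 probes kept), log2 was taken, and each array was set to 0 at its 75th percentile, which lay at signals of 1648.1 to 2415.8; no member spot was saturated. Of the probes, 27222 (69.1%) were named through the printed accession and RefSeq, giving 20656 genes. With both arrays well above background a difference counted as measured, with 1 as a bound, and with neither, or with a bound under 1-fold, as absent; calls needed 2-fold. No value column was left unmapped (0).

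Members, gene lists and patterns were chosen with earlier results of these data known. Named were a list of guidance genes with every array's value, the 8 members furthest in each direction per comparison, and up to 4 genes of each other list; further members were chosen after their values were seen. The lists were the families, other guidance genes, intracellular effectors, and markers of neurons, fibroblasts, macrophages, endothelium, astrocytes and radial glia, oligodendrocytes, Schwann and neural crest cells and skeletal muscle. Alternatives were normexp with an offset of 50, quantile normalization, median centring, a 4-fold threshold, the authors' table, averaging over probes, no filter, and a filter on both arrays; leaving out the 2 genes matched by spelling and requiring a level of -3 or more were added after seeing the data. The calling was also tried on simulated data, with changes only in genes at a MEF level above -3 and noise from the scanner's error model. That simulation covers neither changes in dim genes nor differences between cultures. R 4.3.3, limma 3.58.1, Python 3.11.15, numpy 2.4.6, pandas 2.3.3 and matplotlib 3.10.9 were used.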

Additional observations from a re-analysis of the deposited data

How the results depend on the processing

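No paired analysis was possible because each group has 1 array. For leaving out a replicate, no array could be dropped either. At a 4-fold threshold the counts of higher and lower members were 0 and 0 at 1 dpi, 2 and 8 at 3 dpi, 5 and 3 at 5 dpi and 4 and 3 in the sample labelled 7 dpi, all over MEF, with 20 and 9 in neurons over MEF, 9 and 14 in the sample labelled 7 dpi over neurons, and 1 and 2 over 5 dpi. Centring on the median moved the median of all genes in the sample labelled 7 dpi over MEF to -0.28, from 0.16 otherwise, and in neurons over MEF to -0.59, from 0.26. The members' median then was -0.59 at 3 dpi, -0.26 at 5 dpi, -0.35 in the sample labelled 7 dpi and -0.83 in neurons, each over MEF, and 0.33 in the sample labelled 7 dpi over neurons; 22 members were lower at 5 dpi, and 7 were higher and 11 lower in the sample labelled 7 dpi. Under normexp 6 members were higher at 3 dpi, 9 in the sample labelled 7 dpi over MEF and 4 on it over 5 dpi. Quantile normalization gave 8 higher at 5 dpi and a median of -0.29 in neurons over MEF. Without a filter 5 were higher at 1 dpi. With a level of -3 or more, 6 were higher at 3 dpi and 8 at 5 dpi, 3 were lower in the sample labelled 7 dpi over 5 dpi, and the medians were -0.43 at 5 dpi, -0.29 in neurons over MEF and 0.23 in the sample labelled 7 dpi over neurons. The cause of these shifts was not tested, apart from the threshold and the filters, which change what is counted. Averaging probes turned the sign of Epha5 (0.80), Ntn1 (0.13) and Sema6d (0.04) in neurons over MEF and of Epha5 (-0.11) in the sample labelled 7 dpi over neurons, since their probes differ. Of the members called in the sample labelled 7 dpi over MEF, 7 of 15 higher and 6 of 6 lower stayed past 2-fold under every alternative that kept this threshold and gave a value. The 7 were Ephb1, Unc5a, Epha8, Sema6b, Robo4, Slit1 and Epha7. Sema3g, Plxnb1, Sema5b and Robo3 fell short under normexp, quantile normalization and median centring, and Sema4g under quantile normalization and median centring. In neurons over MEF 20 of 25 higher and 16 of 22 lower did so. The authors' table gave the same member counts in all 7 comparisons. Signals near background limit the dim members, which include Ephb1, Unc5a and Epha8 in MEF.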

Other observations

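Marker lists of other cell types gave these values. The 8 skeletal muscle markers summed to 1.70 at 1 dpi, 1.56 at 3 dpi, 4.99 at 5 dpi and 11.3 in the sample labelled 7 dpi, in units of the array's 75th percentile, against 0.325 in neurons and 0.407 in MEF, and 7 of 7 with a difference were at least 2-fold higher in the sample labelled 7 dpi than in MEF. Myf5, an early factor of the muscle lineage, was not well above background on any array. The 8 oligodendrocyte markers summed to 13.6 in the sample labelled 7 dpi, 13.2 in neurons and 11.1 in MEF. The 7 Schwann and neural crest markers summed to 1.90 in the sample labelled 7 dpi, 3.71 in neurons and 1.65 in MEF. Nrcam, an adhesion molecule that associates with neuropilins, was 16.8-fold lower at 3 dpi, 2.14-fold lower at 5 dpi, 2.56-fold lower in the sample labelled 7 dpi and 1.26-fold higher in neurons, all against MEF.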
